A study of Mus musculus with 8 samples.

Results

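The endoplasmic reticulum folds the proteins that a cell secretes or places in its membranes, and 48 genes of this machinery were followed across mouse colon epithelium of 4 genotypes. The members were taken by gene symbol from a list of endoplasmic reticulum genes, by a rule that names symbols and no measured value, and all 48 were found among the 24346 symbols listed. They comprised 15 genes of folding, 7 stress sensors and transcription factors, 8 genes of endoplasmic reticulum degradation, and 18 genes of secretory entry (7 of the translocon, 4 of signal peptidase, 5 of oligosaccharyltransferase and 2 KDEL receptors). Of these, 46 passed the filter of a mean of at least 1 FPKM (RNA fragments counted per length of transcript and per depth of the library) over all libraries and were tested. The cells were untreated colon epithelial cells of C57BL/6J mice, sequenced as 8 bulk RNA libraries, each genotype giving 1 from males and 1 from females. The wild-type mice carried none of the alleles. St6galnac6-/- mice were knocked out for the gene of a sialyltransferase, B3gnt7-/- mice for that of an N-acetylglucosaminyltransferase that extends glycan chains, and B3galt5D116A mice carried an amino acid substitution (D116A) in a galactosyltransferase, in place of a deletion. Ages, the extent of the deletions and whether a library held 1 animal or a pool are not given in the sources used here, so a p-value speaks only of how far these particular libraries scatter, which may be technical. In bulk samples, fewer cells of a type and less RNA per cell cannot be told apart.

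Proteins bound for secretion enter the endoplasmic reticulum through the Sec61 translocon. Signal peptidase then removes their signal peptide, and oligosaccharyltransferase attaches N-glycans. Chaperones such as BiP (Hspa5) and disulfide isomerases fold them, KDEL receptors return escaped chaperones from the Golgi, and proteins that do not fold are withdrawn and degraded. When unfolded proteins build up, the sensors IRE1, ATF6 and PERK start the unfolded protein response, which raises transcription of chaperone and degradation genes. Goblet cells of the colon make large amounts of mucin and carry IRE1β (Ern2), an intestinal form of IRE1.

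The response elements that connect the sensors to these genes are shown because they lie in the promoters of several members described here. The endoplasmic reticulum stress element (ERSE) is bound by ATF6 together with NF-Y and is spelled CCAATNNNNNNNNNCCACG. It was searched on both strands in the RefSeq promoters of build GRCm38.p6, from 250 bases before to 50 bases after each gene start. Of the 48 members, 37 matched a promoter by symbol, with 39 promoters in all, and 9 of these promoters (23.1%) held the motif. It was held by 39 (0.119%) of all 32851 RefSeq promoters listed, and by 15 (0.134%) of the 11224 promoters of tested genes. The members were listed as genes of this machinery and its stress response, so these shares are a description and no independent result. The 9 members with the motif were Calr, Canx, Creld2, Derl3, Dnajc3, Hsp90b1, Hspa5, Pdia6 and Syvn1, and 7 of the 13 folding genes with a promoter were among them. The sites of 6 folding genes follow, 5′ to 3′ on the gene's strand, with the motif in capitals and 10 bases on each side in lower case; in Calr, Creld2 and the first site of Hsp90b1 the motif lies on the opposite strand and reads as its reverse complement.
Hspa5, chr2:34772015-34772053, plus strand: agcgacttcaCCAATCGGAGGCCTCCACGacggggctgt
Hsp90b1, chr10:86705523-86705561, minus strand: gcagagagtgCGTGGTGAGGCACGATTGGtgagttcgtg
Hsp90b1, chr10:86705628-86705666, minus strand: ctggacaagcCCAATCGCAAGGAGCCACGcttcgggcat
Calr, chr8:84847065-84847103, minus strand: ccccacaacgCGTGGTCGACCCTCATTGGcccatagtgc
Canx, chr11:50325790-50325828, minus strand: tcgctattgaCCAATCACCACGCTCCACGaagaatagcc
Pdia6, chr12:17266481-17266519, plus strand: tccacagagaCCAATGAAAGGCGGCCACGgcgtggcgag
Creld2, chr15:88819510-88819548, plus strand: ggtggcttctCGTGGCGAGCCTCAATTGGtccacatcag
Hspa5 is the gene most used to read this response, and the 250 bases before its RefSeq start are shown (chr2:34771840-34772089, plus strand, ERSE in capitals), where the full motif begins 65 bases before that start.
Hspa5: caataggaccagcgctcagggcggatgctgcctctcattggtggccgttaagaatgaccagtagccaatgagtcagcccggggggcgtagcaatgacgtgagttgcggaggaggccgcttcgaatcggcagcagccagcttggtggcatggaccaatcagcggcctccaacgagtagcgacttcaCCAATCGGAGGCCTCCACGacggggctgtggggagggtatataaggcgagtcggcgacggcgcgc
A shorter form, ERSE-II (ATTGGNCCACG), was found in 2 of the 39 member promoters (5.13%) and in 0.0365% of all promoters, and the unfolded protein response element (UPRE, TGACGTGG) in 1 (2.56%) against 0.676% of all. ERSE-II stands 52 bases before the start of Herpud1, a degradation gene, and in Dnajb11 it does not lie wholly before the start. The UPRE stands 30 bases before the start of Kdelr3, a KDEL receptor, on the opposite strand, so that it reads below as its reverse complement.
Herpud1, chr8:94386367-94386397, plus strand: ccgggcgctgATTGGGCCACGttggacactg
Kdelr3, chr15:79516368-79516395, plus strand: ggccgccccgCCACGTCAccgcgcggcc
A match describes letters in these windows and not binding. Of the 46 tested members, 8 carried an ERSE and 27 had a promoter without one, and their values are compared after those of the single genes.

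The libraries had FPKM sums of 518482 (B3gnt7-/- female) to 639537 (B3galt5D116A female), with 8471 to 9175 genes listed at 0, and their read depth is unknown because the tables hold no counts. St6galnac6 was listed at 218 and 232 FPKM in St6galnac6-/- libraries against 343 to 495 FPKM in the other 6. B3gnt7 was listed at 68.8 and 142 FPKM in B3gnt7-/- libraries against 154 to 266 FPKM in the other 6, so the B3gnt7-/- female lay close to the lowest of them. The B3galt5 level checks nothing, since its allele is a substitution. Epithelial markers (6 of 6 listed) summed to 8516 to 11444 FPKM in every library. Goblet cell markers (11 of 11 listed) summed to 7137 to 7409 FPKM in wild-type, 11458 to 13404 in St6galnac6-/-, 11226 to 11825 in B3galt5D116A and 10004 to 11769 in B3gnt7-/-. Of these, Clca1, Fcgbp, Zg16, Spink4, Reg4, Ang4, Retnlb and Spdef lay above both wild-type values in all 6 mutant libraries. Muc2, Tff3 and Agr2 did not, so the sum does not describe every marker. Muc2 spanned 1250 to 1399 FPKM for wild-type, 1045 to 1463 for St6galnac6-/-, 1374 to 1452 for B3galt5D116A and 1447 to 1786 for B3gnt7-/-. Tff3 spanned 695 to 817, 714 to 729, 762 to 850 and 764 to 855 FPKM in that order. Plasma cells also carry much of this machinery, and their 4 listed markers of 7 summed to at most 0.586 FPKM, with Tnfrsf17 at 0 in every library. The B3gnt7-/- female stood apart from its male partner, with stromal markers (6 of 6 listed) at 34.2 FPKM against 7.45 to 9.67 FPKM in the other 7 libraries, and cytosolic heat shock genes (8 of 8 listed) at 1699 FPKM against 4911 FPKM in the male. The heat shock sum was 2782 to 3242 FPKM in wild-type, 4532 to 4692 FPKM in St6galnac6-/- and 4691 to 5026 FPKM in B3galt5D116A. Lymphocyte markers (6 of 6 listed) ranged from 5.64 to 16.9 FPKM and macrophage markers (5 of 5 listed) from 2.997 to 8.56 FPKM, both highest in that female. Proliferation genes (6 of 6 listed) summed to 174 and 176 FPKM in wild-type libraries. Their sum was 192 to 283 FPKM in the St6galnac6-/- pair, 237 to 273 FPKM in the B3galt5D116A pair, 255 FPKM in the B3gnt7-/- male and 168 FPKM in the B3gnt7-/- female. Enteroendocrine markers (6 of 6 listed) summed to 77.5 and 135 FPKM in wild-type libraries, 172 to 254 FPKM across the St6galnac6-/- and B3galt5D116A libraries, 238 FPKM in the B3gnt7-/- male and 124 FPKM in its female partner. Absorptive cell markers (8 of 8 listed), male then female, summed to 14734 and 13952 FPKM in wild-type and 12305 and 9769 in St6galnac6-/-. Their sums were 13599 and 22322 FPKM in B3galt5D116A, and 17796 and 10581 in B3gnt7-/-. Of these, Car1 alone was at 16569 FPKM in the B3galt5D116A female, against 7997 and 7792 FPKM in wild-type. The part of these markers in the results below was not tested.

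**Figure D1:**
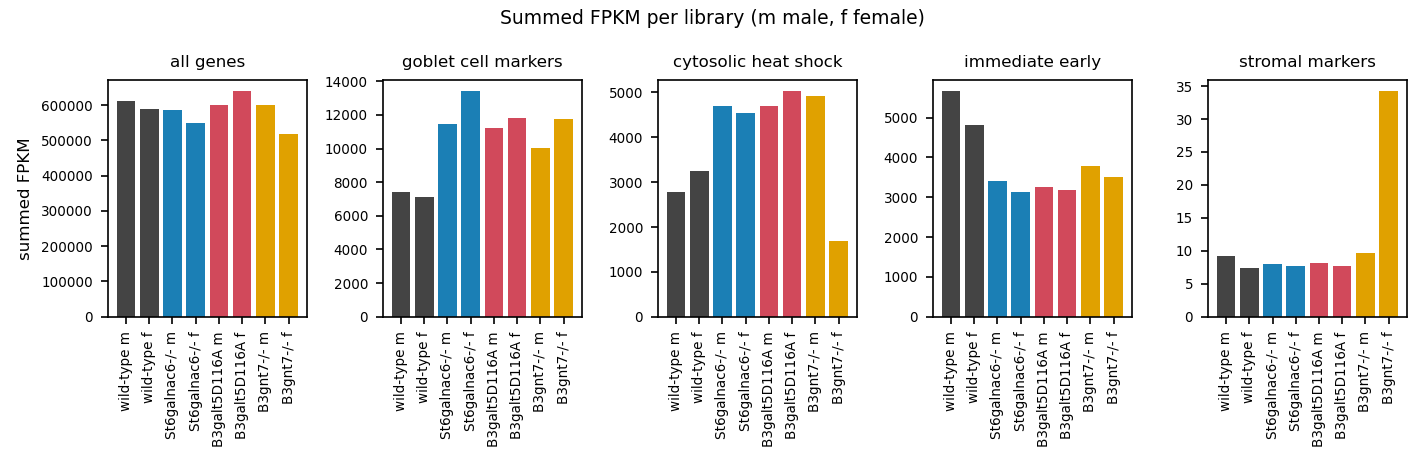
Summed FPKM (vertical axis, from 0) of all genes and of 4 marker lists in each of the 8 libraries, 1 bar per library and 1 colour per genotype. Goblet marker sums lie above both wild-type libraries in all 6 mutant libraries, and the B3gnt7-/- female has the highest stromal sum (34.2 FPKM) and the lowest heat shock sum (1699 FPKM).

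The RNAs of most members were abundant in wild-type and mutant epithelium alike. Calr (calreticulin, a lectin chaperone of glycoproteins) had the highest mean over the 8 libraries with 438 FPKM, followed by P4hb (a disulfide isomerase) with 349.7 FPKM, Hspa5 with 345 FPKM and Atf4 with 307 FPKM. FPKM values are per transcript length, so these levels can be ordered between genes; the ranges of P4hb (286 to 425 FPKM) and Hspa5 (227 to 472 FPKM) overlap, so their order is not set. By list, the median member had 134 FPKM in oligosaccharyltransferase, 100.8 FPKM in the translocon, 82.3 FPKM in folding, 54.6 FPKM in signal peptidase, 49.0 FPKM in the KDEL receptors, 42.5 FPKM among the sensors and 23.0 FPKM in degradation. In the order of all tested genes Calr stood above 98.1% of them, and the lowest tested member, Atf6 (the membrane-bound factor that binds ERSE), above 42.0% with 9.79 FPKM. Of the IRE1 pair, Ern2 with a mean of 42.5 FPKM lay above the widely expressed Ern1 with 10.3 FPKM in every library.

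Per library, the folding group averaged 6.41 and 6.34 on the log2(FPKM + 1) scale in the wild-type male and female, 6.39 and 6.47 in St6galnac6-/-, 6.57 and 6.79 in B3galt5D116A, and 6.61 and 6.18 in B3gnt7-/-. The secretory entry group averaged 6.23 and 6.23 in wild-type, 6.36 and 6.46 in St6galnac6-/-, 6.49 and 6.59 in B3galt5D116A, and 6.43 and 6.15 in B3gnt7-/-. Both groups were thus above both wild-type libraries in both B3galt5D116A libraries, and the B3gnt7-/- pair had its male above and its female below wild-type. Sensors averaged 4.79 and 4.78 in wild-type and 4.67 to 4.80 in the 6 mutant libraries. Degradation averaged 4.21 and 4.20 in wild-type and 4.18 to 4.33 in the mutants. The differences of genotype means from wild-type, on the same scale, were 0.30 for folding, 0.31 for secretory entry, -0.08 for sensors and 0.07 for degradation in B3galt5D116A, and 0.06, 0.18, -0.02 and 0.02 for the same groups in St6galnac6-/-. In B3gnt7-/- they were 0.02, 0.06, -0.07 and -0.01. No test was made of these averages, since the members were chosen for description.

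**Figure D2:**
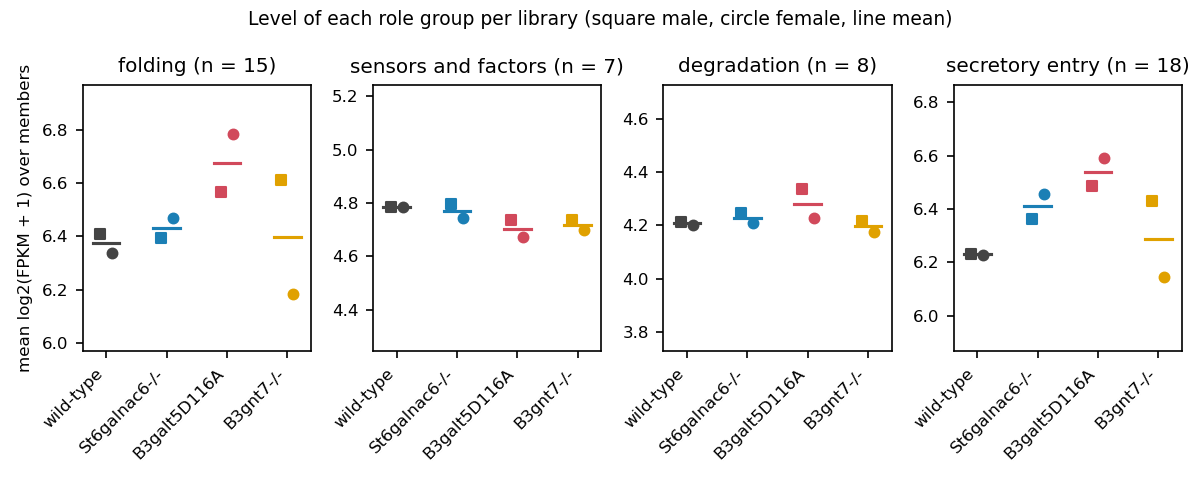
Mean log2(FPKM + 1) over the members of each role group (vertical axis, same span of values in each panel) by genotype, with squares for male libraries, circles for female libraries and a line at the mean of the pair. The folding and secretory entry pairs of B3galt5D116A lie above both wild-type libraries, and in B3gnt7-/- the male lies above and the female below them.

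In B3galt5D116A epithelium, folding and secretory entry genes lay mostly above wild-type, by a median log2 difference of 0.29 and 0.28, while the sensors lay around it. No single member passed the test: limma called 0 of 46 members, against 9 of all 11537 tested genes (0.078%). At an unadjusted p under 0.05 stood 12 of 46 members, against 11.7% of all tested genes. Of the 12, 11 had higher values (against 5.84%) and 1 a lower value (against 5.9%). The smallest adjusted p from limma was 0.299. The count of 12 fell when a wild-type library or the B3galt5D116A female was left out, and rose without either B3gnt7-/- library. Such fits leave 1 library in a genotype. The share of all tested genes was not worked out for them, so these shifts cannot be read as particular to the members. Fitted differences were positive for 38 of 46 members, with a median of 0.24, beside 50.3% and a median of 0.0012 over all tested genes. Both mutant libraries lay above both wild-type libraries for 34 of 46 members, against 26.0% of tested genes, and below both for 4 (Dnajb9, Ern1, Atf4 and Edem1), against 25.3%. The second count was 7 without the B3galt5D116A male (against 39.4% of tested genes) and 7 without the wild-type male (against 36.9%). The median half-width of the 95% interval of a member's difference was 0.34, and the interval of 45 of 46 members excluded a difference of 1 in either direction.

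Among folding genes, 14 of 15 had a higher fitted value in B3galt5D116A. For 11 of 15 both libraries lay above both wild-type libraries, against 26.0% of tested genes. For 1 (Dnajb9) both lay below, against 25.3%. Pdia4, a disulfide isomerase, was listed at 40.8 and 44.9 FPKM in the wild-type male and female, at 54.1 and 58.5 in St6galnac6-/-, at 60.4 and 71.1 in B3galt5D116A, and at 59.3 and 49.1 in B3gnt7-/-. Both wild-type values lay below those of all 6 mutant libraries. The B3galt5D116A difference was 0.60 (SE 0.14, limma adjusted p = 0.299), with a 95% interval of 0.26 to 0.94. Pdia6, another isomerase and one that attenuates IRE1 and PERK signalling, was listed at 84.7 and 86.2 FPKM in the wild-type male and female, at 91.4 and 104 in St6galnac6-/-, at 119.6 and 137 in B3galt5D116A, and at 113 and 93.3 in B3gnt7-/-. It too was above wild-type in all 6 mutant libraries, with both B3galt5D116A values the highest, and the B3galt5D116A difference was 0.58 (SE 0.15, limma adjusted p = 0.322). Sdf2l1, a partner of ERdj chaperones, was listed at 18.5 and 17.97 FPKM in the wild-type male and female, at 20.2 and 23.9 in St6galnac6-/-, at 25.2 and 31.3 in B3galt5D116A, and at 29.2 and 16.4 in B3gnt7-/-. Its B3galt5D116A pair lay above wild-type, with a difference of 0.60 (SE 0.25, limma adjusted p = 0.426), and its B3gnt7-/- pair spanned it. Creld2, a stress-induced isomerase-like protein, was listed at 22.7 and 22.3 FPKM in the wild-type male and female, at 24.6 and 27.8 in St6galnac6-/-, at 30.1 and 30.8 in B3galt5D116A, and at 30.5 and 21.2 in B3gnt7-/-, again with the B3galt5D116A pair above wild-type and a difference of 0.42 (SE 0.17, limma adjusted p = 0.413).

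The abundant chaperones differed less relative to their spread. Hspa5 (chr2:34771970-34777547 of mm10, plus strand) was listed at 392 and 325 FPKM in the wild-type male and female, at 314 and 314 in St6galnac6-/-, at 352 and 472 in B3galt5D116A, and at 363 and 227 in B3gnt7-/-. Its B3galt5D116A male lay between the wild-type libraries and its female above them, so the groups overlap. The difference was 0.19 (SE 0.25, limma adjusted p = 0.760) with a 95% interval of -0.39 to 0.77, and -0.18 with the B3galt5D116A female left out. Hsp90b1 (GRP94) was listed at 225 and 231 FPKM in the wild-type male and female, at 229 and 261 in St6galnac6-/-, at 278 and 318 in B3galt5D116A, and at 286 and 204 in B3gnt7-/-. Both B3galt5D116A libraries were above wild-type, by 0.38 (SE 0.19, limma adjusted p = 0.466). Calr was listed at 420.4 and 398 FPKM in the wild-type male and female, at 409 and 436 in St6galnac6-/-, at 457 and 529.9 in B3galt5D116A, and at 502 and 349 in B3gnt7-/-, with the B3galt5D116A pair above wild-type by 0.27 (SE 0.19, limma adjusted p = 0.584). Manf, a secreted folding factor released under stress, was listed at 37.6 and 31.6 FPKM in the wild-type male and female, at 33.4 and 37.98 in St6galnac6-/-, at 37.5 and 51.5 in B3galt5D116A, and at 38.6 and 26.5 in B3gnt7-/-. The B3galt5D116A male lay within the wild-type pair and the female above it, a difference of 0.34 (SE 0.22, limma adjusted p = 0.547).

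Dnajb9 (ERdj4, a BiP co-chaperone that represses IRE1) went the other way. It was listed at 74.1 and 58.9 FPKM in the wild-type male and female, at 52.5 and 43.7 in St6galnac6-/-, at 48.1 and 56.8 in B3galt5D116A, and at 59.2 and 33.5 in B3gnt7-/-. The B3gnt7-/- male, just above the wild-type female, was the single mutant library not below both wild-type libraries. The differences were -0.33 (SE 0.22, limma adjusted p = 0.551) in B3galt5D116A, -0.46 (SE 0.22, limma adjusted p = 0.596) in St6galnac6-/- and -0.56 (SE 0.22, limma adjusted p = 0.670) in B3gnt7-/-. Leaving out the B3galt5D116A male brought the first of these to 0.02. The other 6 folding members, Hyou1, Dnajb11, Dnajc3, Pdia3, P4hb and Canx, had B3galt5D116A differences of 0.15 (Dnajb11) to 0.32 (Canx), and all but Dnajb11 had both B3galt5D116A libraries above wild-type.

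**Figure D3:**
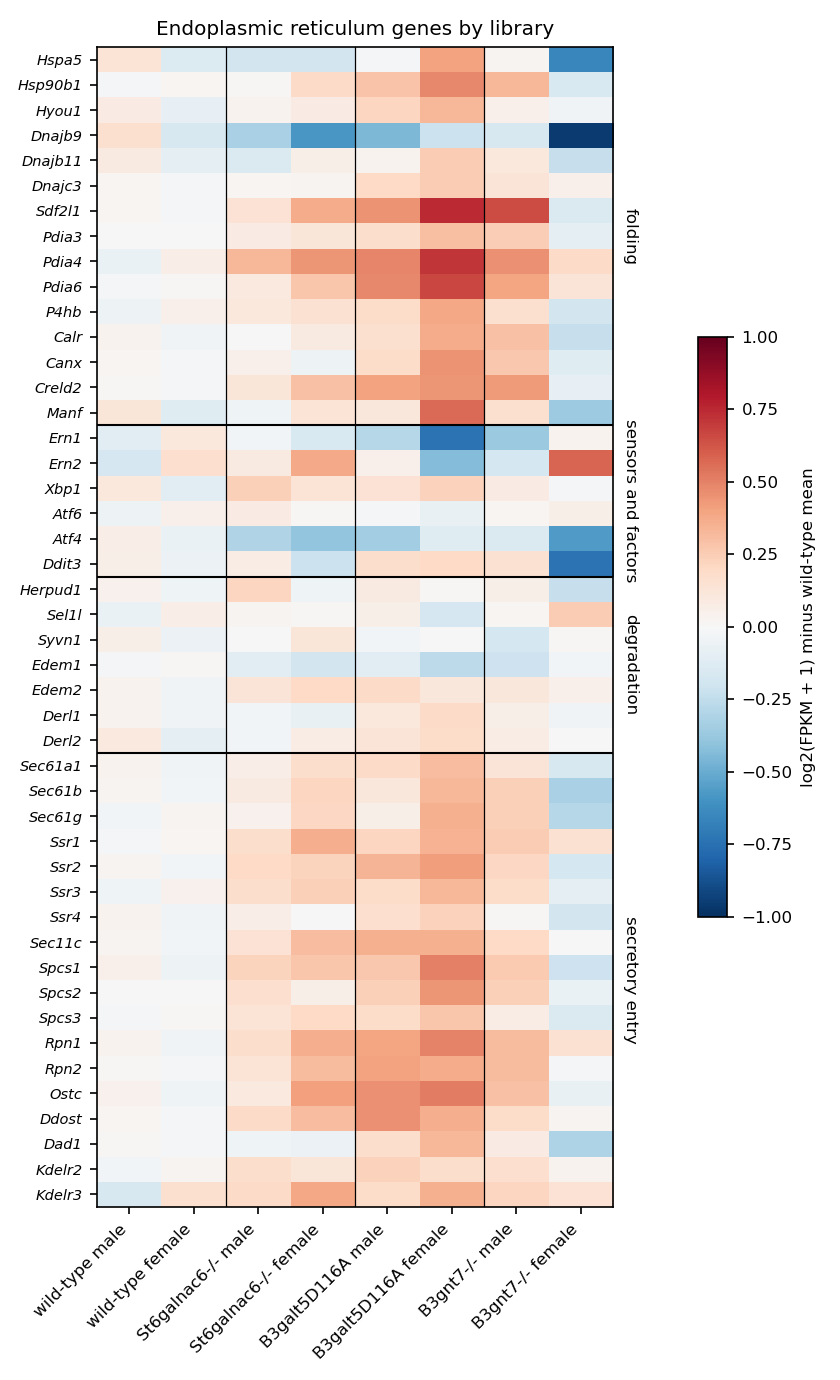
Each of the 46 tested members (rows, by role) in each of the 8 libraries (columns), as log2(FPKM + 1) minus the mean of the wild-type pair, red above and blue below. Folding and secretory entry rows are mostly red in B3galt5D116A, Dnajb9 and Atf4 are blue in most mutant libraries, and the B3gnt7-/- female column is blue for 31 of 46 members where the male column is red for 40. The wild-type male itself lies above the wild-type mean for 30 of 46 members and the wild-type female for 16.

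Of the sensors and transcription factors, 2 of 6 had a higher fitted value in B3galt5D116A, with a median difference of -0.12. Ern1 (IRE1α, the kinase and RNase that splices Xbp1) was listed at 10.8 and 12.6 FPKM in the wild-type male and female, at 11.5 and 10.4 in St6galnac6-/-, at 9.40 and 6.58 in B3galt5D116A, and at 8.81 and 11.99 in B3gnt7-/-. Both B3galt5D116A values were below wild-type, with a difference of -0.51 (SE 0.21, limma adjusted p = 0.413), and its B3gnt7-/- female lay between the wild-type values. Ern2 was listed at 35.3 and 44.7 FPKM in the wild-type male and female, at 42.3 and 51.9 in St6galnac6-/-, at 41.3 and 29.1 in B3galt5D116A, and at 35.1 and 60.1 in B3gnt7-/-. It was above the wild-type male but below the wild-type female in the B3galt5D116A male, and below both in the B3galt5D116A female. Its 3 differences from wild-type had limma adjusted p of 0.851 in St6galnac6-/-, 0.776 in B3galt5D116A and 0.914 in B3gnt7-/-. Xbp1, the factor activated by IRE1 splicing, was listed at 103 and 89.05 FPKM in the wild-type male and female, at 113 and 105 in St6galnac6-/-, at 106 and 113 in B3galt5D116A, and at 101 and 94.2 in B3gnt7-/-. FPKM per gene does not separate its spliced and unspliced forms. Both B3galt5D116A libraries and both St6galnac6-/- libraries were above wild-type, by 0.19 (SE 0.12, limma adjusted p = 0.538) and 0.19 (SE 0.12, limma adjusted p = 0.693).

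Atf4, the factor translated when PERK phosphorylates eIF2α, was listed at 375 and 342 FPKM in the wild-type male and female, at 290.1 and 273 in St6galnac6-/-, at 281 and 329 in B3galt5D116A, and at 324 and 242 in B3gnt7-/-. Both wild-type values were the highest of the 8. The differences were -0.35 (SE 0.17, limma adjusted p = 0.603) in St6galnac6-/-, -0.23 (SE 0.17, limma adjusted p = 0.583) in B3galt5D116A and -0.35 (SE 0.17, limma adjusted p = 0.733) in B3gnt7-/-. Ddit3 (CHOP), a target of Atf4, was listed at 49.5 and 45.7 FPKM in the wild-type male and female, at 50.2 and 40.9 in St6galnac6-/-, at 53.9 and 54.6 in B3galt5D116A, and at 53.01 and 28.1 in B3gnt7-/-. In B3galt5D116A it lay above wild-type by 0.19 (SE 0.21, limma adjusted p = 0.731), and the B3gnt7-/- female had the lowest value of all. Atf6 ranged only from 9.19 to 10.3 FPKM over the 8 libraries. Trib3, an Atf4 and CHOP target, was listed at 0.212 to 0.443 FPKM, below the filter, and was not tested.

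Degradation genes lay near wild-type in B3galt5D116A, 4 of 7 with a higher fitted value and a median difference of 0.05. Herpud1, a stress-induced membrane protein of the degradation complex with ERSE-II before its start, was listed at 96.4 and 90.3 FPKM in the wild-type male and female, at 108 and 90.5 in St6galnac6-/-, at 99.5 and 94.2 in B3galt5D116A, and at 97.2 and 79.4 in B3gnt7-/-. The B3galt5D116A male lay above and the female between the wild-type values, a difference of 0.05 (SE 0.12, limma adjusted p = 0.871). Edem1, a mannosidase-like lectin that hands glycoproteins to degradation, was below both wild-type libraries in all 6 mutants, at 20.4 to 24.3 FPKM against 24.6 and 24.9 FPKM. Edem2, which trims the first mannose, was above both wild-type libraries in all 6, at 25.3 to 28.2 FPKM against 25.0 and 23.9 FPKM. Neither passed the test, with limma adjusted p in B3galt5D116A of 0.544 and 0.563. The channel genes Derl1 and Derl2 had B3galt5D116A differences of 0.15 and 0.16, and the ligase Syvn1 and its adaptor Sel1l of -0.01 and -0.05. Derl3, a Derlin of highly secretory cells, was listed at 0 to 0.815 FPKM, below the filter, and was not tested.

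All 18 secretory entry genes had both B3galt5D116A libraries above both wild-type libraries, against 26.0% of tested genes, with differences of 0.20 to 0.49. Goblet marker, heat shock, proliferation and enteroendocrine sums were also above wild-type in these libraries, and their part was not tested. Oligosaccharyltransferase had a median of 0.41 over its 5 genes, beside 0.35 for signal peptidase, 0.25 for the translocon and 0.24 for the KDEL receptors. Rpn1 (ribophorin I, a subunit of oligosaccharyltransferase) was listed at 76.7 and 73.03 FPKM in the wild-type male and female, at 84.5 and 96.4 in St6galnac6-/-, at 98.9 and 106 in B3galt5D116A, and at 93.6 and 83.3 in B3gnt7-/-. Its 2 lowest values were the wild-type ones, and the B3galt5D116A difference was 0.45 (SE 0.13, limma adjusted p = 0.354). Ddost, a further subunit, was listed at 118 and 114 FPKM in the wild-type male and female, at 133 and 144 in St6galnac6-/-, at 160.0 and 149.9 in B3galt5D116A, and at 132 and 118 in B3gnt7-/-. All 6 mutant libraries were above wild-type, the B3gnt7-/- female by the least, and its B3galt5D116A difference was 0.41 (SE 0.12, limma adjusted p = 0.354). Ostc, a subunit of the form that works at the translocon, was listed at 80.4 and 75.6 FPKM in the wild-type male and female, at 83.4 and 104 in St6galnac6-/-, at 108 and 112 in B3galt5D116A, and at 95.7 and 74.1 in B3gnt7-/-, with a B3galt5D116A difference of 0.49 (SE 0.17, limma adjusted p = 0.389). Rpn2 was listed at 141 and 138 FPKM in the wild-type male and female, at 154 and 174 in St6galnac6-/-, at 185 and 181 in B3galt5D116A, and at 174 and 138 in B3gnt7-/-, with a B3galt5D116A difference of 0.38 (SE 0.15, limma adjusted p = 0.402). For both genes the B3galt5D116A pair was the highest of the 8 libraries. Dad1 was listed at 169.9 and 168 FPKM in the wild-type male and female, at 164 and 162 in St6galnac6-/-, at 190.5 and 212 in B3galt5D116A, and at 178 and 136 in B3gnt7-/-, the single subunit whose St6galnac6-/- pair lay below wild-type.

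Sec11c, a catalytic subunit of signal peptidase, was listed at 143 and 137 FPKM in the wild-type male and female, at 155 and 174 in St6galnac6-/-, at 179.8 and 180.0 in B3galt5D116A, and at 161 and 140.5 in B3gnt7-/-. The B3galt5D116A pair was the highest, 0.36 (SE 0.13, limma adjusted p = 0.395). The other signal peptidase members, Spcs1, Spcs2 and Spcs3, had B3galt5D116A differences of 0.39, 0.34 and 0.23. In the translocon, Ssr2 (a subunit of the translocon-associated complex) was listed at 120.4 and 116.4 FPKM in the wild-type male and female, at 136 and 138 in St6galnac6-/-, at 149.7 and 158 in B3galt5D116A, and at 136 and 105 in B3gnt7-/-. Its B3galt5D116A difference was 0.38 (SE 0.14, limma adjusted p = 0.402), and its B3gnt7-/- female was the lowest library. Ssr1 of the same complex was listed at 13.4 and 13.8 FPKM in the wild-type male and female, at 15.5 and 17.7 in St6galnac6-/-, at 15.96 and 17.6 in B3galt5D116A, and at 16.4 and 15.2 in B3gnt7-/-, above wild-type in all 6 mutant libraries, with a St6galnac6-/- difference of 0.27 (SE 0.12, limma adjusted p = 0.571) and a B3galt5D116A difference of 0.28 (SE 0.12, limma adjusted p = 0.423). Ssr4, with the highest mean of the translocon members and a range that overlaps that of Sec61b (149 to 236 FPKM), was listed at 209 and 198 FPKM in the wild-type male and female, at 214 and 203 in St6galnac6-/-, at 229 and 239 in B3galt5D116A, and at 205 and 179 in B3gnt7-/-, with a B3galt5D116A difference of 0.20 (SE 0.12, limma adjusted p = 0.533). The remaining translocon members, Sec61a1, Sec61b, Sec61g and Ssr3, had B3galt5D116A differences of 0.21 to 0.26. The KDEL receptors followed: Kdelr2 was listed at 74.5 and 77.4 FPKM in the wild-type male and female, at 85.9 and 82.5 in St6galnac6-/-, at 89.1 and 86.1 in B3galt5D116A, and at 85.5 and 77.7 in B3gnt7-/-, and Kdelr3 at 12.1 and 15.4 FPKM in the wild-type male and female, at 15.7 and 18.1 in St6galnac6-/-, at 15.7 and 17.7 in B3galt5D116A, and at 16.02 and 15.2 in B3gnt7-/-. Their B3galt5D116A differences were 0.20 (SE 0.11, limma adjusted p = 0.497) and 0.27 (SE 0.13, limma adjusted p = 0.455), and Kdelr2 was above wild-type in all 6 mutant libraries.

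**Figure D4:**
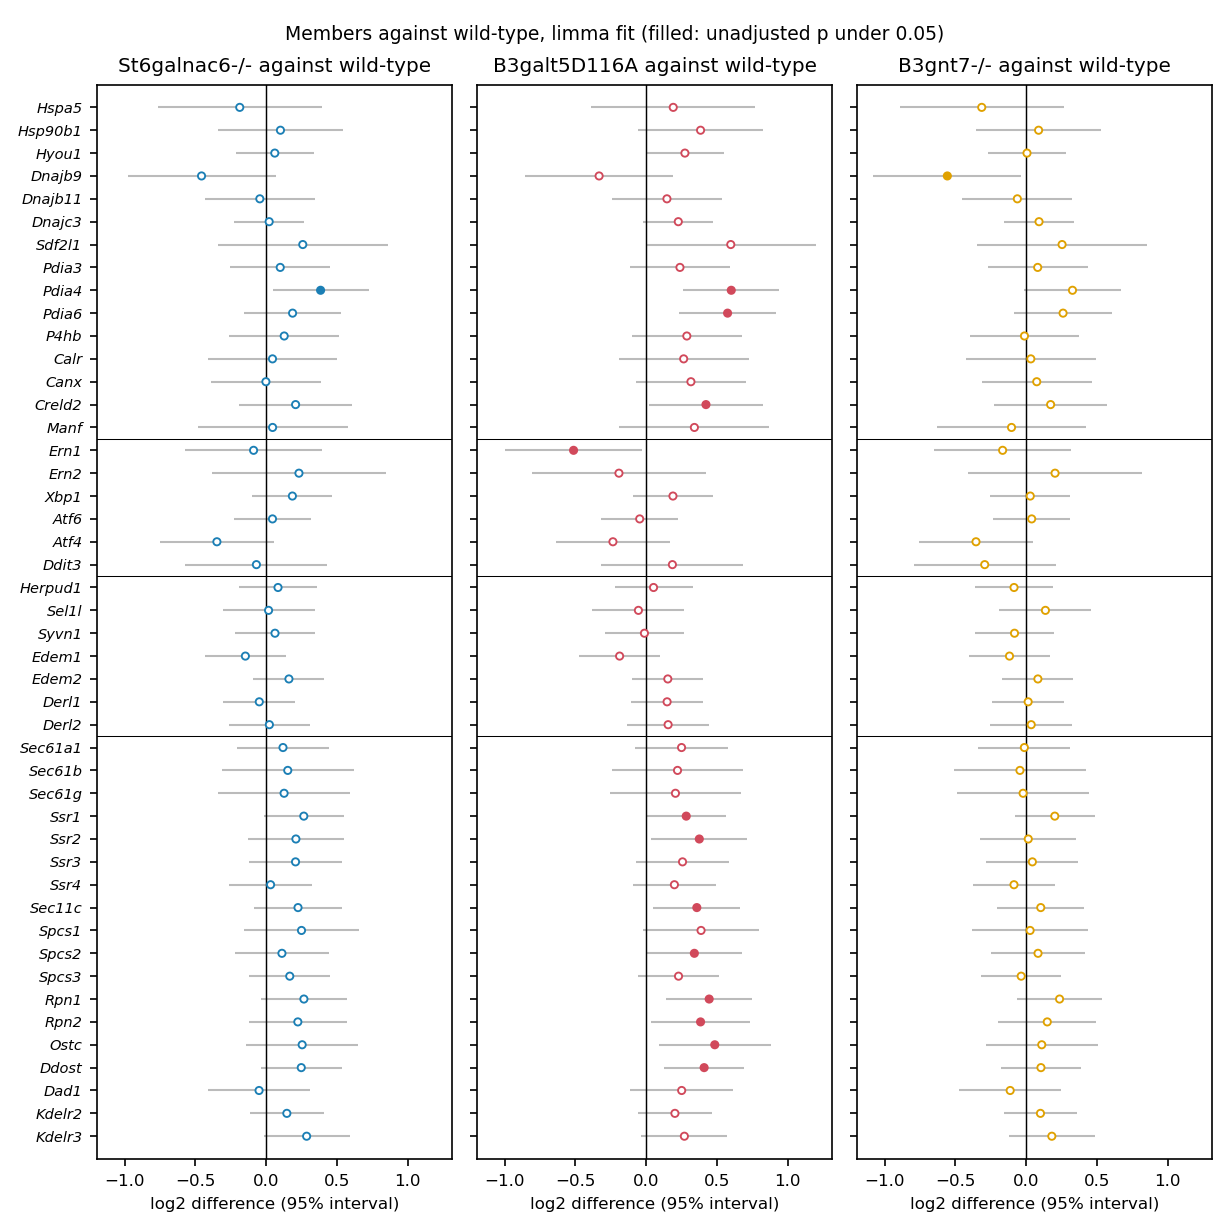
Fitted log2 difference of each tested member from wild-type (horizontal axis) with its 95% interval (grey bar), in 1 panel per mutant, with filled points for an unadjusted p under 0.05. In B3galt5D116A 38 of 46 points lie above 0 and 12 are filled, against 1 filled point each in St6galnac6-/- and B3gnt7-/-; none passed after adjustment.

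In St6galnac6-/- epithelium the secretory entry genes again lay above wild-type, and the folding genes close to it. Fitted differences were positive for 17 of 18 secretory entry genes, with a median of 0.21, for 11 of 15 folding genes, with a median of 0.06, for 3 of 6 sensors, with a median of -0.01, and for 5 of 7 degradation genes, with a median of 0.02. Limma called 0 of 46 members, against 10 of 11537 tested genes (0.0867%), and at an unadjusted p under 0.05 stood 1 member, against 9.04% of tested genes. It was Pdia4, with 0.39 (SE 0.14, limma adjusted p = 0.514) and a 95% interval of 0.05 to 0.73. With equal FPKM sums 11 members stood there, and with quantile normalization 9. The count of 1 fell when a St6galnac6-/- or wild-type library was left out, and rose without a B3galt5D116A or B3gnt7-/- library. The share of all tested genes was not worked out in these settings. The libraries did not overlap for 24 of 46 members (52.17%) with higher values, against 24.1% of tested genes. They did not overlap for 5 members (10.87%) with lower values (Hspa5, Dnajb9, Atf4, Edem1 and Dad1), against 23.6%. The second count was 9 without the St6galnac6-/- male (against 37.4% of tested genes), 8 without the wild-type female (against 37.7%), and 3 with equal FPKM sums (against 14.5%) and with quantile normalization (against 22.9%). Of the 24, 16 were secretory entry genes and 6 folding genes. Ssr1 and Kdelr3 had the next smallest p, with differences of 0.27 (SE 0.12, limma adjusted p = 0.571) and 0.29 (SE 0.13, limma adjusted p = 0.571). Rpn1 and Ddost followed with 0.27 and 0.25, and limma adjusted p of 0.589 and 0.596. Hspa5 lay below wild-type in both libraries, with a difference of -0.19 (SE 0.25, limma adjusted p = 0.877). The goblet marker, heat shock and proliferation sums given above were also higher in both St6galnac6-/- libraries than in both wild-type libraries, and their part in the members' values was not tested.

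In B3gnt7-/- epithelium the male and female libraries went apart, and the fitted differences were small. Limma called 0 of 46 members, against 6 of 11537 tested genes (0.052%), and 1 member, Dnajb9, stood at an unadjusted p under 0.05, against 7.17% of tested genes, with a 95% interval of -1.08 to -0.03. That count of 1 was 4 with equal FPKM sums and with quantile normalization. It fell when a wild-type or St6galnac6-/- library was left out, and rose without a B3galt5D116A or B3gnt7-/- library. In these settings the share of all tested genes was not worked out. Fitted differences were positive for 29 of 46 members with a median of 0.03. The male lay above the wild-type male for 35 of 46 members and the female above the wild-type female for 17, beside 49.05% and 47.46% of all tested genes. In secretory entry these counts were 17 of 18 for males and 5 of 18 for females, and in folding 12 of 15 and 4 of 15. Both libraries lay above wild-type for 8 of 46 members (17.39%), against 16.0% of tested genes, and below it for 2 (4.35%), against 18.6%. Without the B3gnt7-/- female the first count was 33 of 46 (against 36.2% of tested genes) and the second 5 of 46 (against 36.3%). Without the B3gnt7-/- male they were 11 of 46 (against 34.6%) and 27 of 46 (against 40.3%). The first was 13 without the wild-type male (against 28.1%) and 11 without the wild-type female (against 29.6%), and the second 3 (against 29.99%) and 9 (against 33.8%). The female's lower FPKM sum and its lower heat shock, proliferation and enteroendocrine sums moved with this split, and the part of those markers was not tested. After all libraries were scaled to equal FPKM sums, 39 of 46 members were above wild-type in males and 36 in females. Over all tested genes these shares were 52.98% and 72.78%. Both B3gnt7-/- libraries were then above both wild-type libraries for 26 of 46 members (against 26.5%). With quantile normalization this last count was 18 of 46 (against 16.8%). In the other mutants the sexes were closer: as deposited, members above wild-type numbered 38 in males and 39 in females for B3galt5D116A, and 33 and 35 for St6galnac6-/-.

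The mean of the 3 mutants was set against the same wild-type pair, which all comparisons with wild-type share. Limma called 0 of 46 members, against 21 of 11537 tested genes (0.182%), with 6 members at an unadjusted p under 0.05, against 11.3%. These were Pdia4 with 0.44 (SE 0.12, limma adjusted p = 0.266), Rpn1 with 0.32 (SE 0.10, limma adjusted p = 0.350), Pdia6 with 0.34 (SE 0.12, limma adjusted p = 0.372), Dnajb9 with -0.45 (SE 0.18, limma adjusted p = 0.424), and Ddost and Ssr1 with a limma adjusted p of 0.412 each. The count of 6 was 15 with equal FPKM sums and 14 with quantile normalization. It fell without either wild-type library or the St6galnac6-/- female, and rose without the B3gnt7-/- female. The share of all tested genes in these settings was not worked out. All 6 mutant libraries lay above both wild-type libraries for 7 of 46 members (15.22%), against 7.23% of tested genes. The 7 were Pdia4, Pdia6, Edem2, Ssr1, Rpn1, Ddost and Kdelr2. All 6 lay below both for 2 members (4.35%), Atf4 and Edem1, against 8.32%. Without the B3gnt7-/- female the first count was 23 of 46 (against 13.0% of tested genes) and without the wild-type male 12 of 46 (against 16.8%). It was also 23 with equal FPKM sums (against 11.7%), and 17 with quantile normalization (against 7.96%). The goblet marker sum, like these 7, was above wild-type in all 6 mutant libraries, and immediate early genes (8 of 8 listed) were below it, at 3139 to 3780 FPKM against 4823 and 5663 FPKM. Their part in the members' values was not tested.

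Between the mutants, folding genes had their higher fitted values in B3galt5D116A as deposited. With equal FPKM sums the folding averages were 6.39 and 6.56 in St6galnac6-/-, 6.54 and 6.66 in B3galt5D116A, and 6.58 and 6.36 in B3gnt7-/-, so that the pairs overlap. Likewise, with equal sums the secretory entry averages of St6galnac6-/- (6.36 and 6.55) and B3galt5D116A (6.46 and 6.47) overlapped. Against B3galt5D116A, limma called 0 of 46 members in St6galnac6-/-, against 3 of 11537 tested genes (0.026%), with 1 member, Pdia6, at an unadjusted p under 0.05 (against 3.51%) and a difference of -0.39 (SE 0.15, limma adjusted p = 0.917). That count of 1 rose without the B3galt5D116A male or either B3gnt7-/- library, and fell with any other library left out. The share of all tested genes was not worked out for these fits. St6galnac6-/- had the lower fitted value for all 15 folding genes, with a median of -0.22, and for 17 of 18 secretory entry genes, with a median of -0.14. Both St6galnac6-/- libraries were below both B3galt5D116A libraries for 26 of 46 members (56.52%), against 20.3% of tested genes. They were above them for 3 (6.52%), Ern1, Ern2 and Atf6, against 22.2%. With equal FPKM sums, where the median of all tested genes was 0.11 in this comparison, the counts were 9 (against 7.09%) and 6 (against 37.9%), and with quantile normalization the first was 13 (against 17.9%). The second count was 6 without the B3galt5D116A male (against 39.2%), 5 without the B3galt5D116A female (against 33.2%), 7 without the St6galnac6-/- male (against 36.96%) and 6 without the St6galnac6-/- female (against 34.9%). B3galt5D116A was above B3gnt7-/- in fitted value for all 15 folding genes (median 0.27) and all 18 secretory entry genes (median 0.26). Limma called 0 of 46 members there, against 1 of 11537 tested genes (0.00867%), with 3 members, Ddost, Ssr2 and Dad1, at an unadjusted p under 0.05 (against 4.2%) and a limma adjusted p of 0.770 each. These 3 were 0 with equal FPKM sums and with quantile normalization. The count of 3 rose without the B3gnt7-/- male or the B3galt5D116A male, and fell with any other library left out. Here too the share of all tested genes was not worked out, so the rise cannot be read as particular to the members. The pairs did not overlap for 22 of 46 members (47.83%) with higher values in B3galt5D116A, against 18.6% of tested genes. They did not overlap for 1 (2.17%) with a lower value (Atf6), against 15.8%. Without the B3gnt7-/- male the counts out of 46 were 40 (against 43.8%) and 6 (against 38.3%). Without the B3galt5D116A male they were 37 (against 37.8%) and 5 (against 35.4%). Without the B3gnt7-/- female the second was 2 (against 28.5%). Between St6galnac6-/- and B3gnt7-/-, limma called 0 of 46 members, against 5 of 11537 tested genes (0.0433%). None was at an unadjusted p under 0.05, against 3.81% of tested genes. The count at that p rose without either B3gnt7-/- library, where the share of all tested genes was not worked out. The pairs did not overlap for Xbp1, Edem2, Spcs3 and Ddost, higher in St6galnac6-/- (against 16.1% of tested genes), and for Dnajc3, lower (against 13.5%). Without the B3gnt7-/- male these counts, 4 and 1 of 46, were 36 (against 42.8%) and 5 (against 34.7%). Without the B3gnt7-/- female they were 8 (against 36.4%) and 22 (against 34.2%). They were 16 (against 31.3%) and 4 (against 26.1%) without the St6galnac6-/- male, and 8 (against 29.3%) and 3 (against 23.9%) without the St6galnac6-/- female.

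Males and females were compared over all 4 genotypes. Limma called 0 of 46 members, against 6 of 11537 tested genes (0.052%), and none was at an unadjusted p under 0.05, against 1.66% of tested genes. The count at that p rose without a B3galt5D116A or B3gnt7-/- library, where the share of all tested genes was not worked out. Herpud1 was above the female in the male library of every genotype, with a difference of 0.18 (SE 0.08, limma adjusted p = 0.9998), the single such member, against 4.15% of tested genes. No member was below the female in the male library of every genotype, against 3.26% of tested genes. Ddit3 had a larger difference, 0.32 (SE 0.15, limma adjusted p = 0.9998), which rested on the St6galnac6-/- and B3gnt7-/- pairs, and in B3galt5D116A the male and female values were 53.9 and 54.6 FPKM. Leaving out 1 library leaves 3 pairs. Of 46 members, those higher and lower in every male numbered 10 (against 14.5% of tested genes) and 1 (against 11.8%) without either B3galt5D116A library. They numbered 2 (against 8.37%) and 1 (against 7.06%) without either wild-type library. The count of higher members was 4 without either St6galnac6-/- library (against 9.38%), and that of lower members 9 without either B3gnt7-/- library (against 9.41%).

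Members with and without an ERSE were set side by side, with no test between them. In B3galt5D116A, 7 of 8 tested members with the motif had a higher fitted value, with a median of 0.29, and 22 of 27 members without it, with a median of 0.22. In St6galnac6-/- these were 6 of 8 with a median of 0.05 and 20 of 27 with a median of 0.13, and in B3gnt7-/- 6 of 8 with a median of 0.08 and 15 of 27 with a median of 0.03. Of the 13 folding genes with a promoter, the 6 without the motif were Dnajb11, Dnajb9, P4hb, Pdia3, Pdia4 and Sdf2l1. Outside the module, 7 other tested genes held the motif: Acacb, Alg12, Hnrnpa3, Pan2, Spats2l, Xlr3a and Xlr3b.

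The other genes of the pathway were read from 4 further lists, and limma called 0 members of each list in each comparison with wild-type. Over all tested genes in B3galt5D116A, 50.3% had a higher fitted value, and 5.84% with higher and 5.9% with lower values stood at an unadjusted p under 0.05. For B3gnt7-/- 47.95% of them had a higher fitted value, and 7.17% stood at that p in either direction. Of 22 other folding genes, all tested, 19 had a higher fitted value in B3galt5D116A, with a median difference of 0.16, and 6 with higher and 1 with lower values stood at an unadjusted p under 0.05. In B3gnt7-/- 14 of these 22 had a higher fitted value, with a median of 0.12, and 3 stood at an unadjusted p under 0.05. Pdia5, a disulfide isomerase, was listed at 29.5 and 34.7 FPKM in the wild-type male and female, at 46.3 and 49.1 in St6galnac6-/-, at 57.5 and 47.3 in B3galt5D116A, and at 46.6 and 47.3 in B3gnt7-/-. All 6 mutant libraries were above both wild-type libraries, and the mean of the mutants differed by 0.59 (SE 0.12, limma adjusted p = 0.145). Fkbp11, a prolyl isomerase of secretory cells, was listed at 7.15 and 8.45 FPKM in the wild-type male and female, at 11.1 and 17.6 in St6galnac6-/-, at 17.2 and 13.8 in B3galt5D116A, and at 12.9 and 10.8 in B3gnt7-/-, again above wild-type in all 6, by 0.74 (SE 0.18, limma adjusted p = 0.232). Of 18 other secretory entry genes, 17 had a higher fitted value in B3galt5D116A, with a median of 0.21, and 4 stood at an unadjusted p under 0.05. In B3gnt7-/- 9 of these 18 had a higher fitted value, with a median of -0.00038, and none stood at an unadjusted p under 0.05. Srp19, a protein of the signal recognition particle that delivers ribosomes to the translocon, was listed at 29.6 and 28.96 FPKM in the wild-type male and female, at 40.6 and 45.8 in St6galnac6-/-, at 47.8 and 41.4 in B3galt5D116A, and at 39.7 and 33.7 in B3gnt7-/-, above wild-type in all 6 mutant libraries by 0.48 (SE 0.11, limma adjusted p = 0.195). Of 21 other degradation genes, 12 had a higher fitted value in B3galt5D116A, with a median of 0.01, and none was at an unadjusted p under 0.05 in any comparison with wild-type.

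Of 16 other genes of the sensors, 15 were tested, and the 3 with the smallest p in the mean of the mutants all act on eIF2α. Ppp1r15b, a subunit that returns eIF2α to its unphosphorylated form, was listed at 65.1 and 58.8 FPKM in the wild-type male and female, at 41.7 and 44.98 in St6galnac6-/-, at 40.8 and 43.9 in B3galt5D116A, and at 46.1 and 52.9 in B3gnt7-/-. Ppp1r15a (GADD34), the inducible counterpart, was listed at 133 and 113 FPKM in the wild-type male and female, at 72.7 and 73.7 in St6galnac6-/-, at 72.6 and 84.7 in B3galt5D116A, and at 89.01 and 50.5 in B3gnt7-/-. All 6 mutant libraries were below both wild-type libraries for both genes, as for Atf4, against 8.32% of all tested genes. The mean of the mutants differed by -0.45 (SE 0.10, limma adjusted p = 0.184) and -0.74 (SE 0.19, limma adjusted p = 0.243). Eif2ak3 (PERK) differed by -0.23 (SE 0.09, limma adjusted p = 0.424). Its St6galnac6-/- female (14.8 FPKM) lay between the wild-type male and female (15.4 and 14.3 FPKM), so the groups overlap. The list as a whole had 8 of 15 genes with a higher fitted mean of the mutants, and a median of 0.04. Immediate early genes, given above, were also below wild-type in all 6 mutant libraries.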

How the data were processed

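Stranded mRNA libraries had been made from total RNA of 8 mouse colon epithelium samples, per the labels' protocols. Cuffdiff 2.2.1, TopHat2 2.1.1, SAMtools 0.1.18 and Bowtie2 2.2.8 are listed in the submitters' processing notes, with build mm10; the scaling between libraries is not given in the sources used here. The authors deposited 1 table of FPKM per library, per the file headers. No counts are given, so depth, intervals of counting error and detection limits are unknown, and a listed 0 may be a failed estimate.

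The values deposited by the authors as FPKM were taken as log2(FPKM + 1). Genes averaging 1 FPKM or more over the libraries (11537 of 24346) were tested in R 4.3.3 using limma 3.58.1 (trend on, genotype and sex as additive terms, 8 libraries in 1 fit), with 3 residual and 4.02 prior degrees of freedom, two-sided, with Benjamini-Hochberg adjustment over all tested genes and a threshold of 0.05. With 1 library for each genotype and sex, their interaction could not be fitted. Positions came from GENCODE M21 by symbol (47 of 48 members) and promoters from RefSeq. On simulated data with 11537 genes, the fit recovered 55%, 57% and 58% of log2 differences of 1 in St6galnac6-/-, B3galt5D116A and B3gnt7-/-, and 81% for sex. Of differences of 2 it recovered 93%, 93%, 94% and 99%, with 8, 6, 6 and 9 false calls. More genes were changed there than were called in the data, which eases the adjusted threshold. The simulated libraries also scattered independently, with none set apart, so these rates may not carry over to the data.

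The rule for members uses symbols alone, but members and lists were chosen with earlier results of these data known. Named with values were the 8 members with the smallest p in each comparison with wild-type and between sexes, the most abundant member of each group, and 14 usual transcript readouts of the response (28 members in all), and in other lists genes among the 3 smallest p. Edem1, Edem2 and single members of 5 or fewer were named after their values were seen. Alternatives were median centring, quantile normalization, a pseudocount of 5 or of 0.1, a filter at 5 FPKM or none, a fit without the sex term, a fit of the compared genotypes alone, and leaving out each library; equal FPKM sums, and leaving out libraries for counts of libraries that do not overlap, were added after seeing the data.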

Additional observations from a re-analysis of the deposited data

Results flagged for a closer look

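In several groups the male pair of libraries (mutant minus wild-type) differed in direction from the female pair. Each value is a difference between 2 single libraries on the log2(FPKM + 1) scale, so the difference between sexes was not tested. In B3gnt7-/- the mean over all 48 members was 0.1301 in males and -0.0965 in females, the folding group 0.1994 and -0.1548, secretory entry 0.1978 and -0.0824, and degradation 0.0035 and -0.0271. With equal FPKM sums the female values were instead 0.0782 for all members, 0.0273 for folding, 0.0999 for secretory entry and 0.1293 for degradation. These had the same direction as the males. Under that scaling the median of all tested genes in this female was 0.1527, with 72.78% of them above the wild-type female. The change of direction thus cannot be read as particular to the members. The B3gnt7-/- female is the library with the lowest FPKM sum and the highest stromal marker sum. In St6galnac6-/- the folding group was -0.0174 in males and 0.1318 in females, and the sensors were 0.0101 and -0.0413. With equal FPKM sums the folding value was 0.0432 in males and that of the sensors 0.0439 in females. Each again had the direction of the other sex. The median of all tested genes was then 0.0577 in males and 0.0919 in females, with 60.51% and 63.39% of them higher. This change too cannot be read as particular to the members. Ern2 was 0.2189 in the B3galt5D116A male and -0.6034 in the female. Derl3, listed below 1 FPKM in every library, was 0.2523 in the St6galnac6-/- male and -0.2473 in the female, and 0.2795 and -0.4287 in B3gnt7-/-. In B3gnt7-/- P4hb was 0.2117 in the male and -0.2363 in the female, Sec61b 0.2098 and -0.2985, and Sec61g 0.2633 and -0.3075. All 48 members were searched, and single members were listed here when the sexes differed in direction with at least 0.2 in each.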

How the results depend on the processing

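No member was called in any comparison under any of the alternatives run, with limma. Counts at an unadjusted p under 0.05 moved with scaling and with left-out libraries, and the share of all tested genes was not worked out beside them. The count of 34 of 46 members above wild-type in B3galt5D116A was 34 to 39 under other settings. These were the 3 scalings and the 4 left-out libraries run for it, with shares of 22.2% to 39.8% of tested genes. The 24 of 46 in St6galnac6-/- were 24 to 32 in the same way (against 22.6% to 39.2%). Fits of only the genotypes compared could not be made for the mean of the mutants and for sex, which use all genotypes. The labels carry no replicate numbers; the sex term of the fit already pairs the male and the female libraries, and the fit without it made no call.

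Counts of members whose libraries do not overlap, each out of 46, moved with scaling. Quantile normalization gave 3 lower members in St6galnac6-/- (against 22.9% of tested genes), 18 higher in B3gnt7-/- (against 16.8%) and 17 higher in the mean of the mutants (against 7.96%). It gave 13 lower in St6galnac6-/- than in B3galt5D116A (against 17.85%), 11 higher (against 16.4%) and 3 lower (against 14.6%) in St6galnac6-/- than in B3gnt7-/-, and 2 higher in males (against 3.91%). Median centring gave 2 higher (against 13.1%) and 3 lower (against 16.2%) in St6galnac6-/- than in B3gnt7-/-. Equal FPKM sums gave 3 (against 14.5%), 26 (against 26.5%) and 23 (against 11.7%) for the first 3 of these counts. They gave 6 higher (against 37.9%) and 9 lower (against 7.09%) in St6galnac6-/- than in B3galt5D116A, and 2 lower in St6galnac6-/- than in B3gnt7-/- (against 13.2%). In males 2 were then higher (against 1.58%) and 2 lower (against 5.53%). With equal sums the median of all tested genes was 0.11 in St6galnac6-/- against B3galt5D116A and -0.12 in B3galt5D116A against B3gnt7-/-.

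With single libraries left out, these counts, each out of 46 members, and the shares of all tested genes beside them ranged as follows. Against wild-type, 6 to 9 members were lower in St6galnac6-/- (against 33.5% to 37.7%) and 4 to 7 lower in B3galt5D116A (against 35.95% to 39.4%). In B3gnt7-/- 11 to 33 were higher than in wild-type (against 28.1% to 36.2%) and 3 to 27 lower (against 29.99% to 40.25%). In the mean of the mutants 7 to 23 were higher than in wild-type (against 7.69% to 16.8%). Against B3galt5D116A, 5 to 7 were higher in St6galnac6-/- (against 33.15% to 39.2%). Against B3gnt7-/-, 8 to 36 were higher (against 29.3% to 42.8%) and 3 to 22 lower (against 23.9% to 34.7%) in St6galnac6-/-. In B3galt5D116A 23 to 40 were higher than in B3gnt7-/- (against 29.75% to 43.75%) and 1 to 6 lower (against 24.9% to 38.3%). In males 1 to 10 were higher (against 8.37% to 14.5%) and 0 to 9 lower (against 7.06% to 11.8%).

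Group averages minus wild-type moved as follows. A pseudocount of 0.1 gave -0.0451 for sensors and -0.0648 for degradation in B3gnt7-/-, and 0.1621 for degradation in B3galt5D116A. Quantile normalization gave 0.1377 for all members, 0.115 for folding, 0.0267 for sensors and 0.2439 for secretory entry in St6galnac6-/-, and -0.021 for sensors and 0.0127 for degradation in B3gnt7-/-. Equal FPKM sums gave 0.1628, 0.1366, 0.0536, 0.0887 and 0.2601 for all members, folding, sensors, degradation and secretory entry in St6galnac6-/-, -0.1183 for sensors in B3galt5D116A, and 0.0244 for sensors and 0.0776 for degradation in B3gnt7-/-. With equal FPKM sums the median difference of all tested genes from wild-type was 0.0748 in St6galnac6-/-, -0.0363 in B3galt5D116A and 0.0862 in B3gnt7-/-. As deposited it was 0.0030, 0.0012 and -0.0095. Tested genes as a whole thus moved under that scaling, and its group shifts cannot be read as particular to the members. The cause of the other shifts was not tested. Of 1326 differences of single named members under alternatives, 36 had the other sign, and none was called. Each genotype has 2 libraries of unknown depth, and recovery of differences under log2 1 was not examined.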
